A study of Rattus norvegicus with 12 samples.

Results

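The Socs genes and the gp130/STAT3 pathway were followed through 9 genes: Socs1, Socs2, Socs3, Socs5 and Cish, which encode suppressors of cytokine signaling, the cytokine genes Il6 and Lif, the receptor gene Il6st and the transcription factor gene Stat3. Every probe whose deposited gene name equals 1 of these symbols was taken, which gave 14 probes of the 41012 on the array and 9 of its 33212 gene names. Total RNA came from PC12 cells, a line from a rat adrenal pheochromocytoma, treated with PACAP38 (pituitary adenylate cyclase-activating polypeptide, at 1e-07 M) for 5, 10, 15, 30, 60 or 120 min, and from the control culture labelled with the same time. RNA of 6 samples was pooled per group. The PACAP38 pool and the control pool met on 2 arrays per time point with the dyes exchanged, so that PACAP38 was in Cy5 on one and in Cy3 on the other. The 12 arrays therefore hold 1 replicate per time point. Both arrays' ratios stand where an error would, and a single time point allowed no test of PACAP38 against control. The line is 1 clone of tumor cells in serum, and the control cultures had no PACAP38 added.

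Interleukin 6 and leukemia inhibitory factor (Lif) are secreted cytokines that signal through gp130, the shared receptor chain encoded by Il6st. Engaged gp130 activates Janus kinases (Jak), which phosphorylate Stat3. Phosphorylated Stat3 then enters the nucleus and activates target genes, among them Socs3, whose protein binds gp130 and the kinases and shuts the signal off. Cish and Socs2 are the members best known as targets of Stat5 downstream of growth hormone, prolactin and similar receptors, and Socs1 is best known as an inhibitor of interferon signaling. PACAP38 acts on a G protein-coupled receptor that raises cyclic AMP, and the Il6 promoter is known for a cyclic AMP response element and a nuclear factor kappa-B site.

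The results turned on Il6, Cish and Stat3, so the probes behind their values are shown first, in lower case and 5′ to 3′ as deposited. The Il6 probe lies at chr4:457279-458563 on the minus strand of build rn4, the Cish probe at chr8:112544581-112544640 on the plus strand and the brighter Stat3 probe at chr10:89823819-89824169 on the minus strand. Each probe has 60 bases, so the wider spans of Il6 and Stat3, 1285 and 351 bases, cross an intron.
Il6 probe A_44_P371339: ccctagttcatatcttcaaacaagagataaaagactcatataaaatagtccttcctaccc
Cish probe A_43_P16086: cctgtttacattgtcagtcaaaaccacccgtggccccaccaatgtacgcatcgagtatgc
Stat3 probe A_44_P381881: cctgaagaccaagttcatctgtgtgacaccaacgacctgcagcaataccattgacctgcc

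RefSeq promoters on build GRCr8 were found for 6 of the 9 genes. The 250 bases before the start of Il6 (chr4:5894576-5894825, minus strand) and of Cish (chr8:116850719-116850968, plus strand) are shown because both genes were counted as higher below, and capitals mark the matches to the motifs searched on both strands.
Il6 promoter: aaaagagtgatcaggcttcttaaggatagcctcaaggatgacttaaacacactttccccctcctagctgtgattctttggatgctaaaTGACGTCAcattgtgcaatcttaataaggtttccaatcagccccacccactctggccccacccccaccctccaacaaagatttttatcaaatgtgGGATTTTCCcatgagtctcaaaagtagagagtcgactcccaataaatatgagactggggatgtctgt
Cish promoter: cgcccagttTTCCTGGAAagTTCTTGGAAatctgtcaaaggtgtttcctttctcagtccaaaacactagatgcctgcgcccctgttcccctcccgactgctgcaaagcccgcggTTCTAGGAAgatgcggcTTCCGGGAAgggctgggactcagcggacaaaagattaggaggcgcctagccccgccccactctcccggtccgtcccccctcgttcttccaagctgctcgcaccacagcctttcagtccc

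In the Il6 promoter the capitals mark 1 cyclic AMP response element (TGACGTCA, from base -162 to -155) and 1 match to the kappa-B motif GGANTTTCC (base -67 to -59). In the Cish promoter they mark 4 matches to TTCNNNGAA, the gamma-activated sequence bound by STAT proteins, from bases -241, -230, -136 and -119. None of these matches overlapped another. Of all 33469 promoters searched over the same 250 bases, 1.59% held TGACGTCA, 1.08% GGANTTTCC and 7.67% at least 1 TTCNNNGAA, while 0.00598% held 4 or more of the latter. The AP-1 motif TGANTCA, held by 6.34%, was in neither promoter. Of the other 4 genes, Socs1 had 1 TTCNNNGAA (from base -196), and the windows of Il6st, Socs3 and Stat3 held none of the 4 motifs. These matches are a description of the letters, not of binding.

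At the level of all members, 0 of the 14 probes were counted at 5, 10, 15, 30 or 60 min and 2 (14.3%), those of Il6 and Cish, were counted as higher at 120 min. A probe was counted when each of the 2 arrays by itself gave a ratio of PACAP38 to control of at least 2, or each gave one of at most 0.5, with a deposited p-value below 0.01 on both. Over all probes on the array the share counted was 0% after 5 min. It was 0.0659%, 0.117%, 0.351% and 1.25% after 10, 15, 30 and 60 min, and 3.48% (1.95% higher, 1.53% lower) at the last time point. Stat3 came next to Il6 and Cish at 120 min: both of its probes were higher on both arrays, but below 2-fold where PACAP38 was in Cy3.

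**Figure D1:**
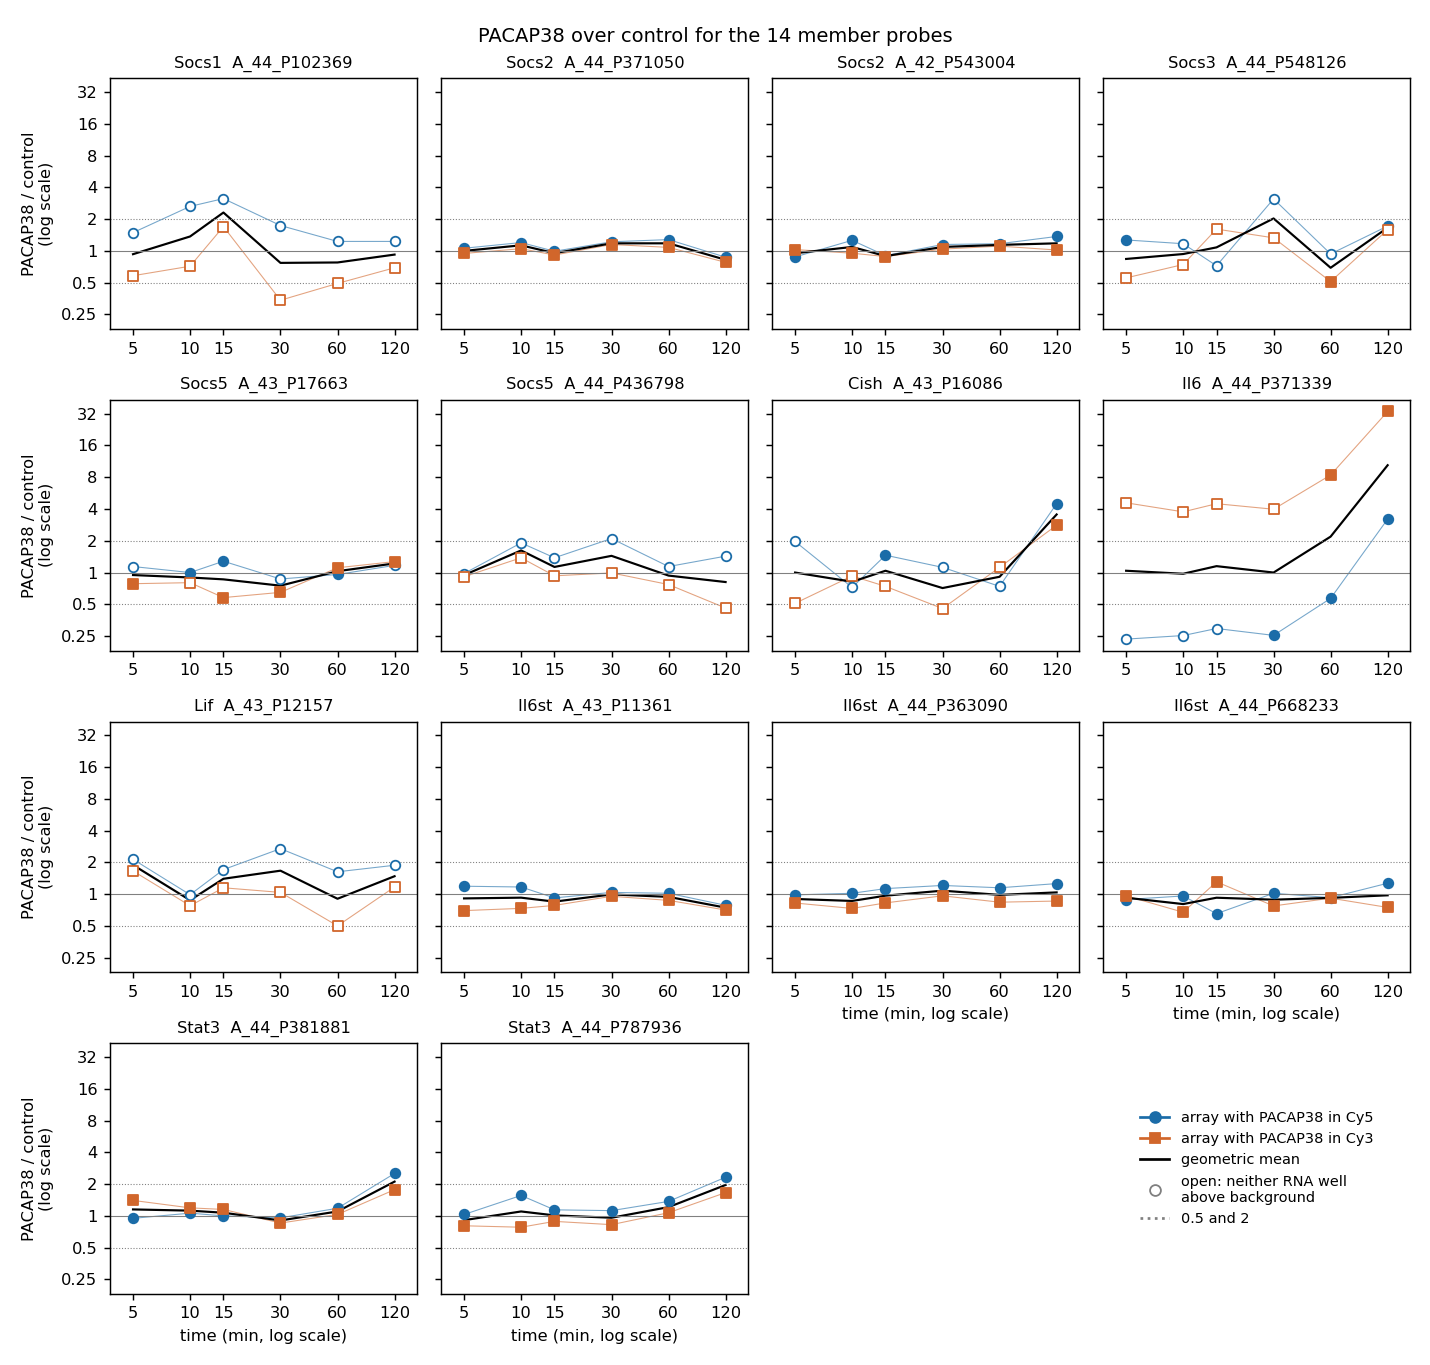
Ratio of PACAP38 to control (log scale) against time in minutes (log scale) for the 14 probes of the 9 genes, with circles for the array with PACAP38 in Cy5, squares for the array with PACAP38 in Cy3 and a black line for their geometric mean. Open symbols mark arrays on which neither RNA was well above background. Only Il6 (3.21 and 33.6) and Cish (4.49 and 2.81) lie above 2 on both arrays at 120 min with at least 1 RNA well above background.

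The signal over background sets what these arrays can show. Only 6 probes, those of Socs2, Stat3 and the 2 brighter ones of Il6st, had both RNAs well above background on all 12 arrays. The probes of Socs1 and Lif and the dimmer probe of Socs5 were well above background in neither RNA on any array. Over all spots, the share well above background per array was 38.4 to 49.6% for control RNA and 39.8 to 48.9% for PACAP38 RNA. In bulk RNA, fewer cells that express a gene and less RNA per cell cannot be told apart. The labelled cell type was checked on 10 PC12 markers, among them Th, Dbh, Chga and the PACAP receptor gene Adcyap1r1, each of which had a probe with the control RNA well above background on all 12 arrays. Signals are processed intensities, which are dye-normalized within an array but not scaled between arrays, so PACAP38 and control are compared within an array, except in the lower bounds, for which signals were first scaled between arrays. Ranges of signals over the 12 arrays, each of which holds both RNAs, show how bright a probe was and are no comparison.

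Among the ligands, Il6 was counted as higher at 120 min. Its probe (NM_012589) is printed on 10 spots, and processed intensities are means over those without an outlier flag. From 5 to 30 min the signal followed the dye rather than the RNA. At 5 min the signals were 5.63 for PACAP38 in Cy5 against 24.1 for control in Cy3, and 30.2 for PACAP38 in Cy3 against 6.58 for control in Cy5. At 30 min they were 7.29 against 28.8 and 29.1 against 7.32. The RNA in Cy3 was thus the brighter one on every array at these times, whichever RNA it was. In order of time the ratios were 0.234, 0.253, 0.295 and 0.254 with PACAP38 in Cy5. With PACAP38 in Cy3 they were 4.58, 3.76, 4.49 and 3.98. The 2 arrays therefore pointed in opposite directions, and their geometric means lay between 0.974 and 1.15. At 5, 10 and 15 min both RNAs were too dim to be called well above background on any array, and at 30 min only control in Cy3 passed.

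At 60 min Il6 still differed by dye. With PACAP38 in Cy5 its signal was 18 against 31.6 for control, and with PACAP38 in Cy3 it was 37.1 against 4.42. On each array only the RNA in Cy3 was well above background, and the ratios were 0.569 and 8.40. At 120 min the PACAP38 RNA was the brighter one in both dyes, with 155 against 48.3 where it was in Cy5 and 213 against 6.34 where it was in Cy3. It was well above background on both arrays, and the control RNA on neither. The ratios were 3.21 and 33.6, with deposited p-values of 5.5e-07 and 3.1e-18. Each such p-value is for 1 array and takes no account of the dye difference of this probe. At 60 min the ratio of 8.40 had a deposited p-value of 1.48e-05, although the swapped array gave 0.569. Because the control was not well above background, the change in Il6 at 120 min is given as a bound on the mean of both arrays, 5.39-fold higher. It is no floor for each array, since the array with PACAP38 in Cy5 gave 3.21. This bound sets the mean PACAP38 signal of both arrays against the higher of the control's own signal and the lowest signal called well above background in that channel, after scaling between arrays. With an offset of 50 added to every signal by the normexp background correction, neither Il6 (log2 ratio 0.59) nor Cish (0.15) was counted.

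The single spots of Il6 showed the same dye pattern on each array. At 120 min all 7 usable spots of the array with PACAP38 in Cy5 were at least 2-fold higher, from 2.45 to 4.64, and all 8 of the other array, from 22.7 to 46.7. At 60 min 0 of 9 spots with PACAP38 in Cy5 had a ratio above 1, against 8 of 8 with PACAP38 in Cy3. The time points 60 and 120 min share a slide, and their ratios can be set side by side within 1 dye orientation. The log2 ratio was higher at 120 min than at 60 min by 2.50 with PACAP38 in Cy5 and by 2.0 with PACAP38 in Cy3. These differences rest on a control signal that was not well above background on either array at 120 min and only in Cy3 at 60 min, so their size is uncertain.

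**Figure D2:**
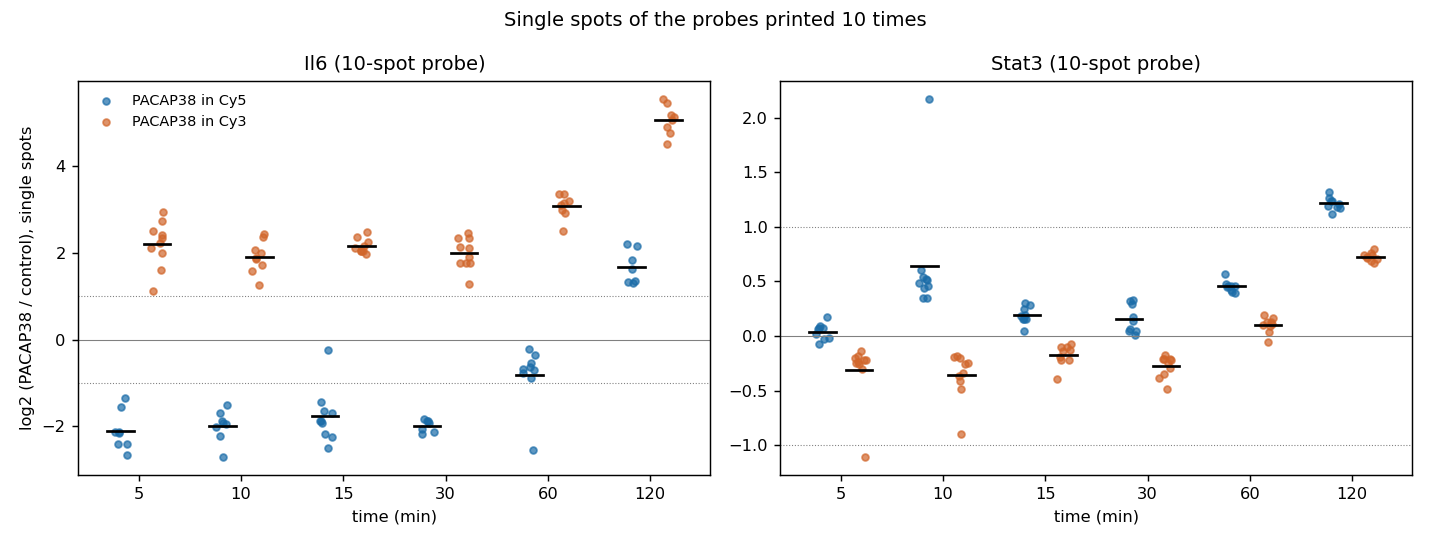
Log2 ratio of PACAP38 to control of the single spots (points) of the 10-spot probes of Il6 and Stat3 by time in minutes, for the array with PACAP38 in Cy5 and the array with PACAP38 in Cy3, with the mean of each array as a black bar. The Il6 spots of both arrays lie on opposite sides of 0 up to 60 min and all lie above 1 at 120 min, while for Stat3 at 120 min the spots lie above 1 with PACAP38 in Cy5 only.

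Macrophages and other leukocytes are a known source of Il6, and 4 of their markers were read beside it. Ptprc and Itgam, which define leukocytes and myeloid cells, were well above background in neither RNA on any of the 12 arrays. Csf1r was so in the control RNA of 1 array. Cd68, a lysosomal protein, was measured in both RNAs and had a ratio of 1.94 (1.97 and 1.91) at 120 min. The summed signal of the 4 markers at 120 min was 220 in the control and 397 with PACAP38. Most of it was Cd68 alone (376 against 191 with PACAP38 in Cy5 and 335 against 176 in Cy3), and no probe of the 4 was counted. Their part in the Il6 result was not tested.

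Lif was dim throughout. Its signal over the 12 arrays was 9.86 at the lowest, 18.2 at the median and 32.2 at the highest with PACAP38, and 7.67, 11.8 and 23.8 in the control. Neither RNA was well above background at any time point, so no ratio is given.

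Il6st, the gene of gp130, was measured by 3 probes. On the brightest (A_43_P11361), the control signal over the 12 arrays was 704 at the lowest, 1740 at the median and 2920 at the highest, and with PACAP38 it was 686, 1680 and 2970. The ratio stayed between 0.850 and 0.995 from 5 to 60 min. At 120 min the signals were 2000 against 2540 with PACAP38 in Cy5 and 1990 against 2800 with PACAP38 in Cy3. Both arrays lay below 1, with ratios of 0.785 and 0.708 and deposited p-values of 0.0922 and 0.0174, and the probe was not counted. The second probe (A_44_P363090) did not show this, with 1.26 and 0.861 at 120 min and geometric means of 0.863 to 1.08 over the 6 time points. The dimmest (A_44_P668233) had means of 0.806 to 0.976.

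Stat3, the transcription factor downstream of gp130, was measured by 2 probes of similar brightness. On A_44_P381881 the ratio lay between 0.904 and 1.15 from 5 to 60 min. At 120 min its signal was 1570 against 625 with PACAP38 in Cy5 and 1650 against 934 with PACAP38 in Cy3. The ratios were 2.52 and 1.77, with a geometric mean of 2.11 and deposited p-values of 2.89e-08 and 1.77e-04. The other probe (A_44_P787936, 10 spots, chr10:89821145-89821204) had signals of 1470 against 634 and 1340 against 811 at 120 min. Its ratios were 2.32 and 1.66 with a mean of 1.96. At 60 min its ratio was 1.21 (1.37 and 1.07) and that of A_44_P381881 was 1.10 (1.18 and 1.03).

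PACAP38 was thus the brighter RNA on both arrays for both Stat3 probes at 60 and at 120 min. At 120 min all 9 usable spots of A_44_P787936 lay between 2.17 and 2.50 with PACAP38 in Cy5 and all 9 between 1.59 and 1.73 with PACAP38 in Cy3, so the spread between the arrays was larger than that between spots. Both arrays of both probes had p-values below 0.01, and the probes were not counted because the ratio with PACAP38 in Cy3 was below 2. By the geometric mean of both arrays alone, a rule chosen after the data were seen, A_44_P381881 would be counted and A_44_P787936 would not. Within the slide that holds 60 and 120 min, the log2 ratio of A_44_P381881 at 120 min exceeded that at 60 min by 1.09 in one orientation and 0.78 in the other, and that of A_44_P787936 by 0.76 and 0.63. At 5 min the arrays disagreed: A_44_P381881 had 0.947 and 1.40, the latter with a deposited p-value of 7.54e-09, while A_44_P787936 had 1.03 and 0.805.

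**Figure D3:**
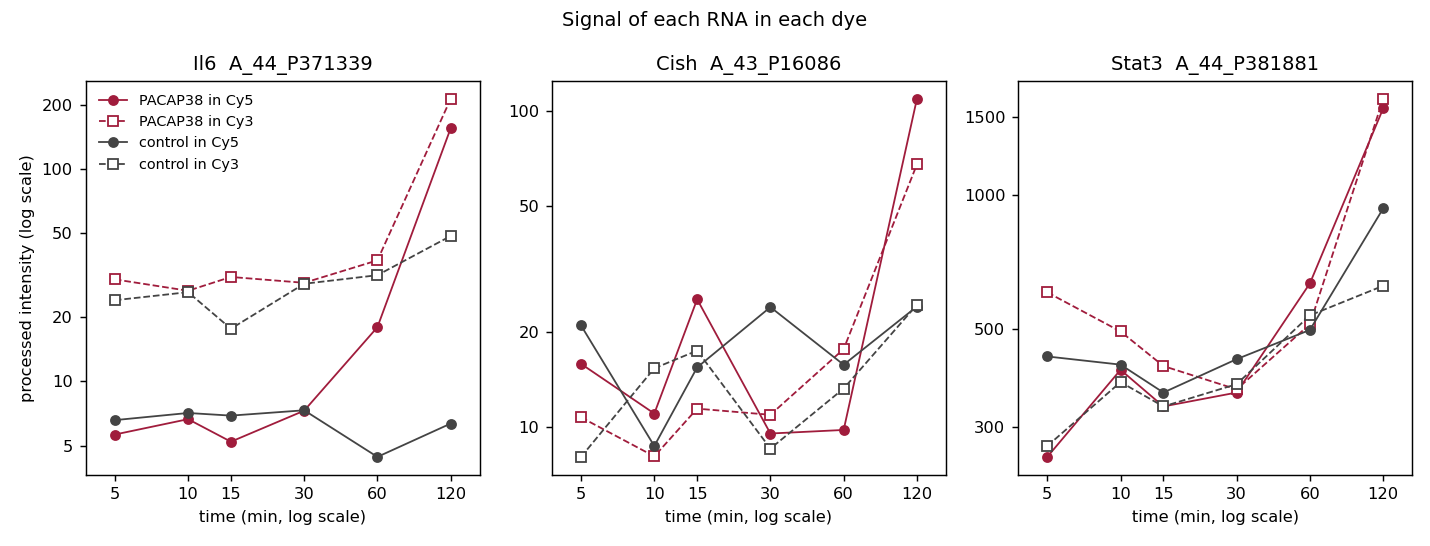
Processed intensity (log scale) of the Il6, Cish and brighter Stat3 probes against time in minutes (log scale), with PACAP38 in red and control in grey, Cy5 as filled circles and Cy3 as open squares. Filled red and open grey share an array, as do open red and filled grey, and only these are compared: for Il6 the RNA in Cy3 is the brighter one on each array up to 60 min, and in all 3 panels PACAP38 exceeds the control of its array at 120 min (155 against 48.3 and 213 against 6.34 for Il6).

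Of the SOCS family, Cish was the member counted. Its probe (NM_031804) was dim at first: from 5 to 60 min the control RNA was never well above background and the PACAP38 RNA only on 1 array at 15 min. At 60 min the signals were 9.76 against 13.2 with PACAP38 in Cy5 and 17.6 against 15.7 with PACAP38 in Cy3. At 120 min they were 109 against 24.3 and 67.6 against 24.0. PACAP38 was now well above background on both arrays and control on neither. The ratios were 4.49 and 2.81, with deposited p-values of 1.22e-05 and 0.00519. After 120 min of PACAP38, the same bound on the mean of both arrays was 2.82-fold higher for Cish, next to 2.81 on the array with PACAP38 in Cy3. The log2 ratio of Cish at 120 min exceeded that at 60 min by 2.60 in one orientation and 1.32 in the other. Both RNAs were dim at 60 min and the control also at 120 min, so the size of these differences is uncertain.

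Socs2 was not counted at any time point. Its brighter probe (A_44_P371050) had a control signal of 14600 at the lowest, 17100 at the median and 28000 at the highest, and 15200, 19500 and 24400 with PACAP38. The ratio was 1.18 at 30 min (1.22 and 1.15). It was again 1.18 at 60 min (1.28 and 1.08) but 0.824 at 120 min (0.872 and 0.779). Both arrays thus lay above 1 at 30 and 60 min and below 1 at 120 min, with no deposited p-value below 0.01. The other probe (A_42_P543004, NM_058208), with a median control signal of 475, stayed above 1 on both arrays from 30 to 120 min. At 60 min its ratio was 1.14 (1.17 and 1.11), and the last time point gave 1.18 (1.37 and 1.02). The 2 probes lie at chr7:32605117-32605176 and chr7:32605827-32605886.

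Socs3, the feedback inhibitor of gp130, was not counted at any time point. Its signal over the 12 arrays was 15.7 at the lowest, 29.2 at the median and 52.9 at the highest with PACAP38, and 11.5, 26.7 and 36.5 in the control. PACAP38 RNA was well above background on 2 arrays, 1 at 5 min and 1 at 120 min, and control RNA on 1 at 60 min. At 120 min the signals were 52.9 against 30.7 and 40.0 against 25.1, with ratios of 1.72 and 1.59 and deposited p-values of 0.182 and 0.282. PACAP38 was well above background on 1 array only and control on neither, so no lower bound is drawn. At 60 min the ratios were 0.936 and 0.512, with deposited p-values of 0.864 and 0.0889 and control above background on 1 array. Under the normexp correction with loess the mean ratio was 0.973 at 60 min and 1.04 at 120 min. At 30 min, with both RNAs near background, the 2 arrays gave ratios of 3.11 and 1.33.

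Socs1 and Socs5 lay near background. The Socs1 signal was 13.2 at the median and 23.4 at the highest in the control, and neither RNA was well above background on any array. The brighter Socs5 probe (A_43_P17663) had a median control signal of 33.4, with the control RNA well above background on 6 arrays and PACAP38 RNA on 4. At 60 min, when both RNAs were above background on both arrays, its ratio was 1.03 (0.959 and 1.11). At 120 min its signals were 38.6 against 33.0 and 50.1 against 39.5, with control above background on 1 array.

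For change over time, limma fitted the log2 ratios, averaged over both arrays, against log2 of the time on 20202 probes, of which 10 belong to 6 members: Socs2, Socs5, Cish, Il6, Il6st and Stat3. Over all probes 147 (0.728%) had a Benjamini-Hochberg adjusted p-value below 0.05, and 5807 an unadjusted one. The count of 147 fell to 0 or 1 when 10, 15, 30, 60 or 120 min was left out. None of the 10 member probes passed. The slope was 0.65 per doubling of time for Il6 (SE 0.185, limma adjusted p = 0.101), 0.19 for Stat3 A_44_P787936 (SE 0.0616, limma adjusted p = 0.117) and 0.14 for A_44_P381881 (SE 0.0868, limma adjusted p = 0.34). For Cish it was 0.30 (SE 0.162, limma adjusted p = 0.275). For the 2 Socs2 probes and the 3 of Il6st the slopes lay between -0.04 and 0.07. The mean of 30, 60 and 120 min minus that of 5, 10 and 15 min gave 0 of 20202 probes (0%) past the threshold in limma, with 2702 at an unadjusted p-value below 0.05, and 0 of the 10 members. The largest differences were 1.43 for Il6 (SE 0.815, limma adjusted p = 0.441) and 0.48 for Cish (SE 0.6, limma adjusted p = 0.694). Time points with a dim signal enter these fits as deposited. Il6 passed the filter for these fits through 60 and 120 min and Cish through 120 min only. Their slopes and differences therefore depend on the time points that let them in.

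The genes whose 6 log2 ratios ran most like those of Il6 and Cish were sought among 937 named probes that were counted at some time point and well above background in at least 1 RNA on every array. For Il6 they were Odc1, Dedd2, Snrnp48, Usp12 and Tph1, with Pearson r over the 6 time points from 0.9983 to 0.9994. Odc1, the first enzyme of polyamine synthesis, had a log2 ratio of 0.62 at 60 min and 1.77 at 120 min. Tph1, which makes the serotonin precursor, had 0.78 and 2.50. For Cish they included Dclk1, Ndrg1, Spire1 and Brinp1, with r from 0.9877 to 0.9978. Each of these 4 had a log2 ratio between -0.07 and 0.23 at 60 min and between 1.2 and 1.66 at 120 min. The Il6 probe was near background from 5 to 30 min and the Cish probe from 5 to 60 min, so the step at 120 min sets these values and the order within each list carries no information.

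Around the 9 genes, 60 of 61 listed pathway genes had a probe. At 120 min 7 of the 60 genes were counted as higher and 2 as lower, on 8 and 2 of their 85 probes (9.41% and 2.35%, against 1.95% and 1.53% of all probes). The median log2 ratio of the 43 genes measured at 120 min was 0.11, against -0.027 over all 18586 probes measured. With the normexp correction and loess, the mean ratio at 120 min fell short of the fold limit for Il6r (1.82), Timp1 (1.51) and Stat5a (0.504), and passed it for the other 6 of these 9 genes. The lists were drawn up with earlier results of these arrays known.

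Of 6 further ligands, 0 were counted. Cntf (ciliary neurotrophic factor) and Ctf1 (cardiotrophin 1), measured in both RNAs throughout, kept ratios of 0.881 to 1.01 and 0.875 to 1.03. Osm (oncostatin M) was never well above background. Il11 was at 58.1 against 8.60 at 120 min with PACAP38 in Cy5 and at 24.6 against 6.48 with PACAP38 in Cy3. PACAP38 was well above background on the first array only, so no lower bound is drawn, and Il11 was not counted.

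Of 5 receptor genes, Il6r, the ligand-binding chain for interleukin 6, was counted as higher at 120 min. Its signals were 1980 against 954 and 2100 against 886, with ratios of 2.07 and 2.37, and from 5 to 30 min its ratio lay between 0.938 and 1.11. Il6r and Il6 were thus both counted at 120 min, and Il6st was not. Cntfr, with signals of 229 against 83.5 and 117 against 97.7 at 120 min, had a mean ratio of 1.81 and was not counted. Lifr was never well above background in either RNA, and Osmr in neither at 120 min.

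None of the 4 Janus kinase genes was counted. The brighter Jak2 probe had a ratio of 0.603 at 120 min (0.668 and 0.545) and the other 0.700 (0.650 and 0.754). Jak1 stayed between 0.839 and 0.986. Tyk2 was well above background on only some arrays, with 1.06 and 0.367 at 120 min. Of 6 other STAT genes, Stat5a was counted as lower at 120 min: 955 against 2350 and 966 against 2270, with ratios of 0.406 and 0.426. Stat5b, its near relative, had 1.27 and 1.04.

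Of the remaining SOCS genes 0 of 3 were counted. Socs4 was at 825 against 418 and 846 against 377 at 120 min, with ratios of 1.97 and 2.25, just short of the limit on 1 array. After 30 min its ratio was 1.22 and after 60 min 1.41. Socs6 had 0.919 and 1.19 at 120 min. Socs7 was near background, with 54.8 against 52.4 and 34.8 against 69.6. Among 8 genes of PIAS proteins (inhibitors of activated STAT) and tyrosine phosphatases, Pias3, whose product binds Stat3, was lower at 120 min, at 853 against 2210 and 658 against 1860, with ratios of 0.386 and 0.353. Pias1 (0.673 and 0.582) and Pias4 (0.724 and 0.487) lay below 1 without being counted, and the phosphatase genes Ptpn6 and Ptpn11 had means of 0.823 and 0.880. Pias2, Ptpn1 and Ptpn2 had means above 1, of 1.10, 1.18 and 1.44, and were not counted either.

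Of 5 genes of receptors that act ahead of Cish and Socs2, Ghr, Prlr and Insr were never well above background in either RNA. Epor was above it in neither RNA at 120 min. Igf1r was measured throughout, with a mean ratio of 1.43 at 120 min.

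Of 23 genes known as Stat3 targets, 6 were counted as higher at 120 min and 0 as lower, on 7 of their 33 probes (21.2%, against 1.95% of all probes counted as higher at that time). Junb and Cebpb, transcription factor genes of the immediate and the delayed early response, had ratios of 14.2 (14.9 and 13.5) and 5.53 (6.28 and 4.87). Nfil3, a transcription repressor, had 7.09 (8.76 and 5.74). Mcl1, a survival gene of the Bcl2 family, had 3.77 (3.56 and 3.99) and 4.46 (3.97 and 5.02) on its 2 probes. Timp1, a metalloprotease inhibitor, had 2.12 (2.19 and 2.05). Vip, a neuropeptide gene with cyclic AMP-responsive transcription, had signals of 616 against 22.1 and 579 against 57.7, the control being well above background on the second array only. Several of these genes also respond to cyclic AMP and MAP kinase. The list was drawn up with earlier results of these arrays known, so its share of 21.2% is a description and no test.

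The order in time differed among these targets. Junb was counted from 10 min on (3.95, and then 6.94, 13.8 and 20.3 up to 60 min), and Cebpb and Nfil3 from 30 min on (2.75 and 2.54). Mcl1 was counted at 60 min on 1 probe (2.26), and Timp1 and Vip at 120 min. Pim1 (1.82 and 2.89) and Vegfa (2.44 and 1.87) lay above 1 on both arrays at 120 min and were not counted. Other known targets were not above 1 on both arrays: Bcl2l1 was at 0.729 and 0.533, Cebpd at 0.642 and 0.608 and Ccnd1 at 1.01 and 0.809, and the acute-phase gene Hp at 0.966 and 1.04. Myc, Icam1, Fgg, Lbp and Gfap were well above background in neither RNA on the brightest probe at any time point.

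**Figure D4:**
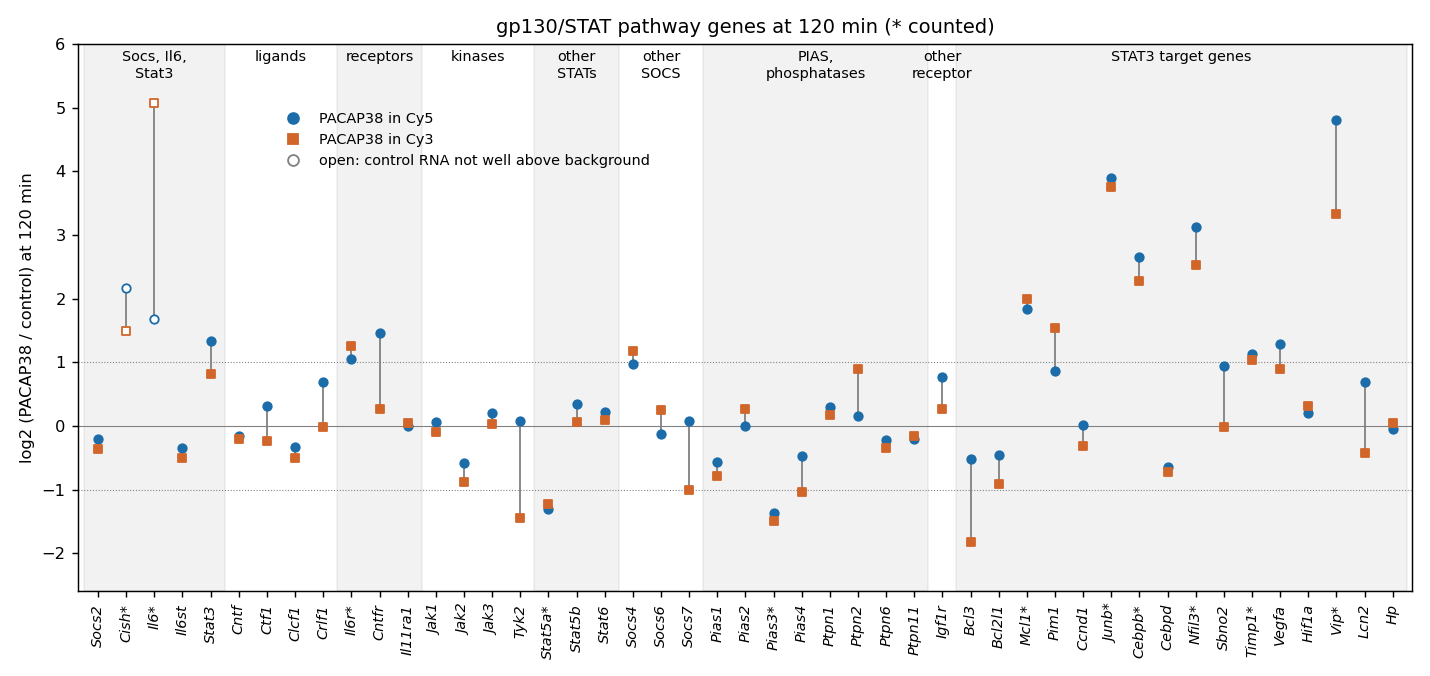
Log2 ratio of PACAP38 to control at 120 min for pathway genes with 1 RNA or both well above background on each array, grouped by role, with a circle for PACAP38 in Cy5 and a square for PACAP38 in Cy3. Stars mark counted genes, open symbols genes with control RNA near background on both arrays (Il6 and Cish), and dotted lines 2-fold and 0.5-fold. Of the Stat3 targets 6 and Il6r lie above the upper line on both arrays, and Stat5a and Pias3 lie below the lower one.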

How the data were processed

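RNA of PC12 cells was compared with PACAP38 over control at 6 time points on 12 Agilent 4x44K arrays of 3 slides, with 5 and 10, 15 and 30, and 60 and 120 min sharing a slide. The authors extracted the signals with Feature Extraction (version 12.0.3.1 in the file headers and 11.0.1.1 in the submitters' processing notes, while the methods name an older one) on build rn4. As deposited, processed intensities are background-subtracted and LOWESS dye-normalized, spots carry a p-value of their log10 ratio, and a second table holds the log10 ratios of Cy5 over Cy3 without turning the swapped arrays. Control spots and outlier spots were left out, log2 ratios were averaged over a probe's spots, and the median of their p-values was taken. A probe was well above background where more than 0.5 of its spots were. Where a gene has several probes, the one with the highest mean signal stands for it. Bounds came from processed intensities after Aquantile scaling. Slopes used limma 3.58.1 (R 4.3.3) on probes well above background in 1 RNA or both on the 2 arrays of at least 1 time point. The fit was run on simulated data with equal noise in all probes and effects larger than those of any member in the main fits. That run therefore says nothing of effects as small as the members'. Python 3.11.15, pandas 2.3.3 and numpy 2.4.6 did the rest. The members and the lists were chosen with earlier results of these data known. All 9 members and every counted pathway gene are named, with further genes of the pathway given whatever their values. A few genes that these rules name are not reported here. Other pathway genes named were chosen after their values were seen. Precision is limited by the number of arrays. The alternatives were other fold and p rules, 1 array alone, normexp background correction (offset 50) with loess or median centring, the deposited ratios, filters on dim probes, slide as a block, time in minutes and leaving out each time point.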

Additional observations from a re-analysis of the deposited data

Results flagged for a closer look

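The brightest Socs2 probe pointed in opposite directions at different time points. Both arrays lay above 1 at 30 min and both below 1 at 120 min, a difference of 0.52 in the log2 ratio. With 1 replicate per time point this difference was not tested. Its second probe was above 1 on both arrays at 30 and at 120 min.

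The brighter Stat3 probe lay below 1 on both arrays at 30 min (0.957 and 0.854) and above 1 on both at 120 min, a difference of 1.22 in the log2 ratio that was not tested either. Under the normexp correction its log2 ratio at 30 min was not below 0, with 0.04 under loess and 0.02 under median centring, against 0.69 and 0.51 at 120 min. On the 10-spot Stat3 probe the arrays differed in direction at 30 min (1.12 and 0.825).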

How the results depend on the processing

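No pairing beyond that of the 2 RNAs on each array was possible, because the 2 arrays per time point share their RNA and the labels number no replicates. With 1 array alone, the number of member probes counted at 5 min was 0 to 1, at 60 min 0 to 1 and at 120 min 2 to 4. The array with PACAP38 in Cy3 counted Il6 at 5 and 60 min, and the array with PACAP38 in Cy5 counted Il6, Cish and both Stat3 probes at 120 min. A limit of 1.5-fold gave the same 4 probes at 120 min. The share of all probes counted under these looser rules is not given here, so these counts describe the members alone. With normexp background correction 0 member probes were counted at 120 min, under loess and under median centring alike. Normexp adds an offset of 50 to each signal, which is close to or above the signals of Il6 and Cish in the control: their log2 ratios at 120 min were 0.59 and 0.15 under loess and 0.54 and 0.17 under median centring, and those of the brighter Stat3 probe 0.69 and 0.51. Median centring also moved the median of all measured probes to 0.113 at 15 min and -0.106 at 120 min. With no p limit, the deposited ratios, probes well above background, the median of spots or the geometric mean, the count at 120 min was 2 or 3, the geometric mean having been chosen after seeing the data. Of the 54 log2 ratios (9 genes at 6 time points), 13 moved by more than the SD of the 2 arrays under normexp with loess and 16 with median centring, and 0 counted values changed sign under either. With time in minutes 3 of the 10 member probes had a slope past the threshold in limma. They were those of Il6 (limma adjusted p = 0.00313), Stat3 A_44_P787936 (limma adjusted p = 0.00985) and Cish (limma adjusted p = 0.0391). Of all 20202 probes 5334 passed as well, a share near that of the members. Il6 was in the fit through 60 and 120 min and Cish through 120 min, being near background before, so that these slopes restate the values at 120 min. Neither is in the fit of probes well above background throughout. Under the other settings of the slope, and under all those of late minus early, 0 member probes passed. Of all probes, 147 passed for the slope, against 0 to 153 when a time point was left out, 542 among those well above background throughout, 29 with loess, 1 with median centring, 3 and 29 with PACAP38 in Cy5 and in Cy3 alone, 0 without the filter on dim probes (6552 unadjusted) and 0 with slide as a block (943 unadjusted). For late minus early 0 passed, against 466 without 30 min and 2 with PACAP38 in Cy3 alone. Signal over background limits Socs1, Socs3, Socs5 and Lif.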
